A study of Mus musculus with 40 samples.

Results

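Klf4 and Klf2 were the Krüppel-like factor genes read in this series of mouse duodenum, chosen as every probe whose symbol is KLF followed by a number (KLF4 and KLF2 in the table's spelling). They are 2 of 2756 gene symbols and 2 of 3045 probe rows, with 1 probe each, and both passed the filter on low counts. The tissue came from male, wildtype B6C3F1 mice, and each of the 40 libraries was made with TempO-Seq, which ligates a pair of oligomers on each targeted RNA and counts the amplified product, from formalin-fixed, paraffin-embedded duodenum. The labels call 5 libraries control and name no compound for them, and each of 5 exposed groups had 7 libraries after 28 days. Those groups were given Cr(VI), which is hexavalent chromium, at 180 ppm in the water they drank, the fungicide captan at 6000 or 12000 ppm in the diet, or the related fungicide folpet at 6000 or 16000 ppm in the diet. The labels do not say whether libraries of a group came from different mice, so each p-value measures the spread between these libraries, which may be technical.

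Krüppel-like factors are transcription factors that bind GC-rich and CACCC sequences through zinc fingers at their carboxyl end. In the intestine KLF4 is found mainly in differentiated epithelium towards the villus tip and in goblet cells, where it restrains the cell cycle, and Notch signalling holds its level down in crypts. KLF2 is known chiefly from blood vessel endothelium, where flow induces it through the kinases MEK5 and ERK5 and MEF2 factors, and from resting lymphocytes.

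The promoters of both genes are shown because the estimates for Klf4 and Klf2 had opposite signs in all 5 comparisons with control. Each line gives the 250 bases before the RefSeq start site of the gene on build GRCm38.p6, 5′ to 3′ on the gene's strand. Klf4 lies on the minus strand at chr4:55532476-55532725 and Klf2 on the plus strand at chr8:72318812-72319061. Capitals mark GC boxes, searched as GGGCGG on both strands, and 1 match to the MEF2 motif in Klf2.
Klf4: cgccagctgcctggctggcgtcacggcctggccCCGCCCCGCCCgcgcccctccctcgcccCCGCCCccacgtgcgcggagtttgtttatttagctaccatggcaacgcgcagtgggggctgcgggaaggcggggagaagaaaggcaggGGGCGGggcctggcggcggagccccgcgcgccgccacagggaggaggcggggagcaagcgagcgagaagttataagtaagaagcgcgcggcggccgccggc
Klf2: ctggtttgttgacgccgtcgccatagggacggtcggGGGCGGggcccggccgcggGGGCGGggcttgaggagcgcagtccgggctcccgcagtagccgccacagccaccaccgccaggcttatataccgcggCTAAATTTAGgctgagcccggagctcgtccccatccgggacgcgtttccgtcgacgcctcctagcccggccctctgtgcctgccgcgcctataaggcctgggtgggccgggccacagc
Both stretches are rich in G and C, at 74.0% for Klf4 and 71.2% for Klf2, against a median of 52.4% over the 32851 RefSeq promoters of that length. GGGCGG was found 4 times before Klf4, with the first pair sharing 1 base, and 2 times before Klf2, and 32.7% of promoters held it. The MEF2 match of Klf2 lies 118 to 109 bases before the start, and 2.92% of promoters held such a match on either strand. The Klf4 stretch held none. CACCC, the letters bound by many Krüppel-like factors, was present 1 time for Klf2 and 0 times for Klf4, and in 52.0% of promoters. The antioxidant response letters TGACNNNGC and the letters TATAAA were found in neither stretch, and in 10.2% and 12.4% of promoters. These matches describe letters in a fixed window and no binding was measured.

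Klf4 rose in all 5 exposed groups, by 2.50-fold with Cr(VI) and by 2.56-fold to 2.90-fold with the fungicides. No difference in its level between exposed groups passed the test. Klf2 was lower with Cr(VI), 2.42-fold by the fit, and its estimates for the 4 fungicide groups lay below 0 without passing the test. Levels are in CPM, a library's counts scaled to a common total, after TMM scaling, which corrects for library composition, and they are compared across libraries and not between the 2 genes, since probes differ in efficiency.

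**Figure D1:**
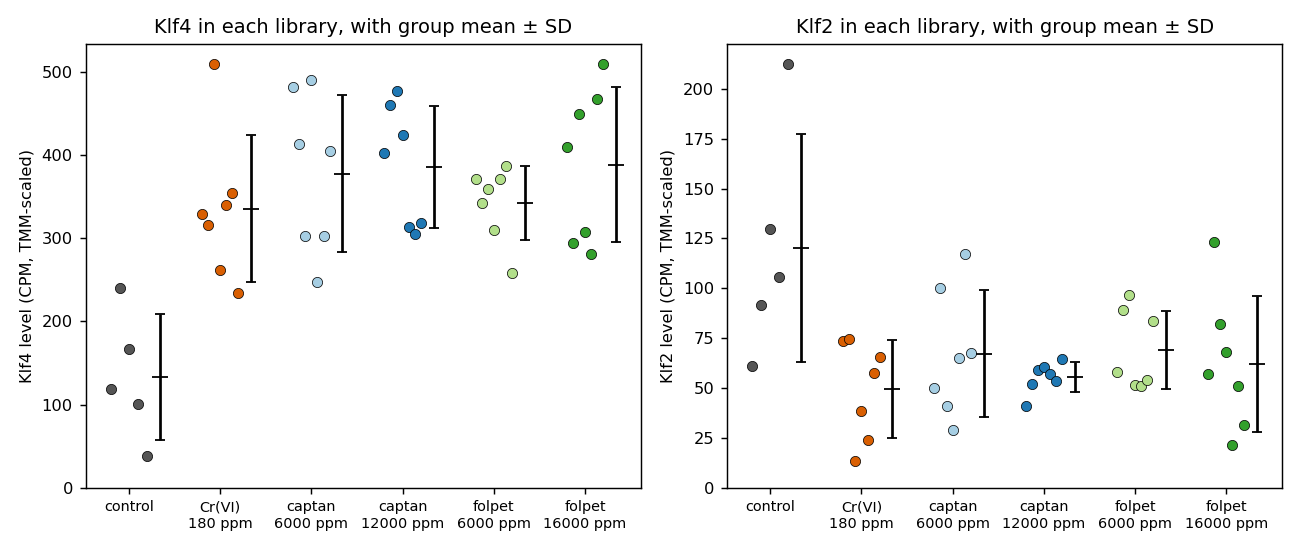
Level of Klf4 (left) and Klf2 (right) in each library, in TMM-scaled CPM on the vertical axis, by group on the horizontal axis, with the group mean and SD beside the points. On this scale Klf4 lies above all 5 controls in 34 of 35 exposed libraries, while the Klf2 values of exposed and control libraries overlap.

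Klf4 stood at 119, 240.2, 167, 100.3 and 37.8 CPM in control replicates 1 to 5, from 619, 911, 860, 346 and 42 counts. The control values thus spanned a wide range, with replicate 5 the lowest and replicate 2 the highest. In the Cr(VI) group the lowest, median and highest values were 234, 329 and 509.9 CPM. The captan values were 248, 405 and 491 CPM at 6000 ppm and 305, 403 and 477 CPM at 12000 ppm. The folpet values were 258, 359 and 387 CPM at 6000 ppm and 281, 409 and 509.6 CPM at 16000 ppm. All 28 fungicide libraries lay above every control, and so did 6 of 7 Cr(VI) libraries. The exception was Cr(VI) replicate 7, at 234 CPM, under control replicate 2. Group means were 133 ± 75.8 CPM (SD, n = 5) in controls, 335 ± 88.4 with Cr(VI), 378 ± 94.5 and 386 ± 73.0 with captan at 6000 and 12000 ppm, and 343 ± 44.8 and 388 ± 93.1 with folpet at 6000 and 16000 ppm (SD, n = 7 each).

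Tested in a model over all 2541 probes that passed the filter, Klf4 rose by 1.32 ± 0.24 log2 with Cr(VI) (SE, adjusted p = 0.000526, edgeR quasi-likelihood test with Benjamini-Hochberg adjustment over all probes). In the same test it rose by 1.5 ± 0.25 with captan at 6000 ppm (adjusted p = 0.000117) and by 1.53 ± 0.25 at 12000 ppm (adjusted p = 3.91e-05). With folpet it rose by 1.35 ± 0.24 at 6000 ppm (adjusted p = 0.000193) and by 1.53 ± 0.25 at 16000 ppm (adjusted p = 1.09e-05). The share of all probes called higher was 2.95% for Cr(VI), 3.78% and 4.64% for captan at 6000 and 12000 ppm, and 4.6% and 7.91% for folpet at 6000 and 16000 ppm. An exact 2-sided permutation test of mean log2 CPM over every regrouping of 7 and 5 libraries gave p = 0.00505 for Cr(VI). It gave 0.00253, the smallest value those regroupings allow, for each of the other 4 groups. Adjusted over the 10 such tests of both genes, the exact p was 0.00842 and 0.00631. The 2 genes were chosen with earlier results of these data known, so this adjustment is more lenient than the one over all probes. All 5 comparisons use the same 5 controls, so they are not independent of each other.

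With Cr(VI) 2 settings ended the call of Klf4. Scaling by library totals alone gave 0.85 (adjusted p = 0.295, edgeR), with the median of all probes at -0.30 log2 on that scale in place of -0.03, so that Klf4 stood 1.15 above it. Fitting only the Cr(VI) and control libraries gave 1.36 (adjusted p = 0.0575, edgeR). In CPM of the unscaled library total, 3 of 7 Cr(VI) libraries lay above every control.

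Klf2, the flow-responsive endothelial and lymphocyte factor, stood at 61.1, 91.8, 130, 106 and 213 CPM in control replicates 1 to 5, from 317, 348, 667, 365 and 236 counts. Control replicate 5, lowest for Klf4, was highest for Klf2. With Cr(VI) the lowest, median and highest values were 13.5, 57.4 and 74.4 CPM. Captan gave 28.8, 65.1 and 117 CPM at 6000 ppm and 40.9, 57.1 and 64.4 CPM at 12000 ppm. Folpet gave 51.2, 58.1 and 96.4 CPM at 6000 ppm and 21.7, 57.1 and 123 CPM at 16000 ppm. The groups overlapped: 21 of 35 exposed libraries lay below every control, of which 4 of 7 were in the Cr(VI) group, 3 and 6 in the captan groups and 4 and 4 in the folpet groups. Against the control median 33 of 35 were lower, and against the control mean 34 of 35, folpet 16000 ppm replicate 2 being the exception. Group means were 120.2 ± 57.3 CPM (SD, n = 5) in controls, 49.5 ± 24.4 with Cr(VI), 67.2 ± 31.8 and 55.4 ± 7.60 with captan, and 69.2 ± 19.7 and 62.1 ± 33.9 with folpet (SD, n = 7 each).

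In the Cr(VI) group Klf2 fell by 1.27 ± 0.36 log2 (SE, adjusted p = 0.0238, edgeR quasi-likelihood test, Benjamini-Hochberg). For captan the estimates were -0.84 ± 0.36 at 6000 ppm (adjusted p = 0.174) and -1.11 ± 0.36 at 12000 ppm (adjusted p = 0.0520). For folpet they were -0.79 ± 0.36 at 6000 ppm (adjusted p = 0.201) and -0.95 ± 0.36 at 16000 ppm (adjusted p = 0.0744). None of the 4 fungicide estimates passed, although each 95% interval lay below 0, the one nearest to 0 running from -1.51 to -0.07. The share of all probes called lower was 2.99% with Cr(VI), 1.38% and 1.53% at the lower and higher captan dose, and 1.61% and 4.68% at the lower and higher folpet dose. The exact 2-sided permutation p was 0.0101 with Cr(VI), 0.0657 and 0.00505 at the captan doses, and 0.0379 and 0.0429 at the folpet doses. Adjusted over the same 10 tests these exact p-values were 0.0144, 0.0657, 0.00842, 0.0473 and 0.0477. They are not on a like footing with the edgeR values, which were adjusted over all probes.

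The Klf2 call with Cr(VI) rested on few libraries. It was lost without control replicate 5 (-0.97, adjusted p = 0.111, edgeR), without Cr(VI) replicate 3, which held 31 Klf2 counts (-1.10, adjusted p = 0.0570), or without Cr(VI) replicate 5 (-1.13, adjusted p = 0.0602). It was also lost with limma-voom (-1.26, adjusted p = 0.0559), with library totals alone (-1.50, adjusted p = 0.0953) and with only the compared groups fitted (-1.23, adjusted p = 0.166). With library totals alone the median of all probes was -0.30 log2, and relative to that median Klf2 stood at -1.20. Under DESeq2 Klf2 passed in the highest dose groups as well, at -1.18 with captan at 12000 ppm (adjusted p = 0.0220) and -1.04 with folpet at 16000 ppm (adjusted p = 0.0307), whereas limma-voom called neither (adjusted p = 0.119 and 0.100).

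**Figure D2:**
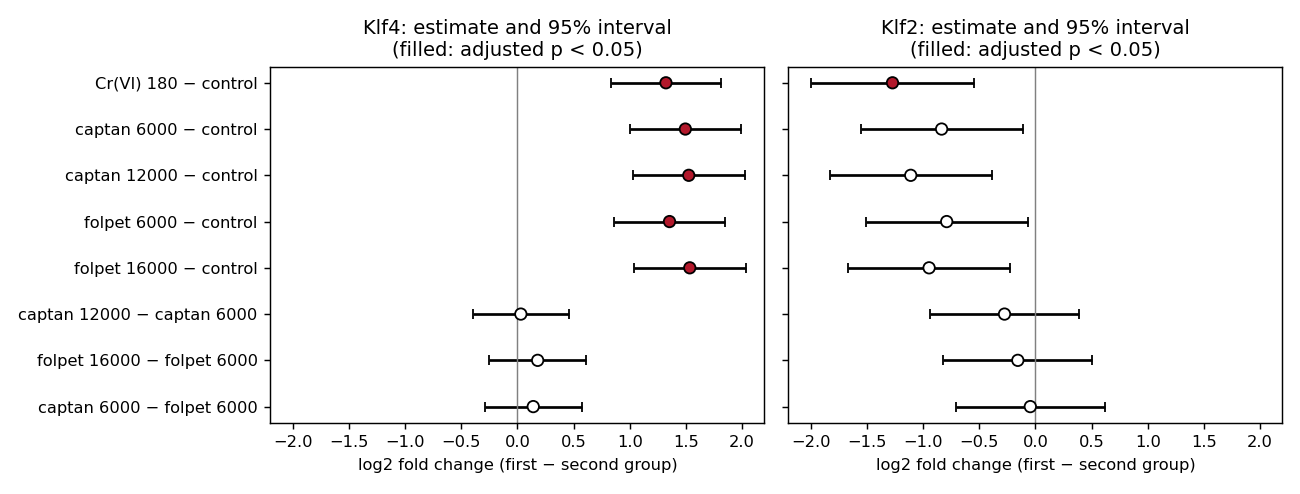
Estimated log2 fold change with its 95% interval (horizontal axis) for each comparison (vertical axis), Klf4 left and Klf2 right, filled where the adjusted p was under 0.05. All 5 Klf4 intervals against control lie above 0, from 0.83 at the lowest bound to 2.03 at the highest, and the intervals between exposed groups all include 0.

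Among the exposed groups neither gene showed a difference that passed. The test of any difference among the 5 groups gave F = 0.437 for Klf4 and 0.717 for Klf2 (unadjusted p = 0.781 and 0.584, edgeR quasi-likelihood test), where 7.24% of all probes passed. From the lower to the higher captan dose Klf4 differed by 0.03 ± 0.21 log2 with a 95% interval from -0.40 to 0.46. In that comparison 0 of 2541 probes passed in edgeR, a share of 0%, with 148 at an unadjusted p under 0.05, 1 called by DESeq2 and 0 by limma-voom. From the lower to the higher folpet dose Klf4 differed by 0.18 ± 0.21, with an interval from -0.25 to 0.61, and 1.73% of probes passed.

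Captan and folpet carry the same trichloromethylthio group on an imide nitrogen, and differ in the ring fused to the imide, which is partly saturated in captan and aromatic in folpet. They can be compared at 6000 ppm, the single dose that both received. Captan minus folpet there was 0.14 ± 0.21 log2 for Klf4, with a 95% interval from -0.29 to 0.57 (adjusted p = 1, edgeR). For Klf2 it was -0.05 ± 0.33, with an interval from -0.71 to 0.62 (adjusted p = 1), and 0.157% of probes passed. This was the only pair of compounds compared, and the intervals leave room for differences in either direction. The higher doses, captan at 12000 ppm and folpet at 16000 ppm, are not matched, and their Klf4 means stood at 386 and 388 CPM.

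For Klf2 the captan dose step was -0.28 ± 0.33 log2 (95% interval -0.94 to 0.39) and the folpet dose step -0.16 ± 0.33 (interval -0.82 to 0.51), neither passing in edgeR. In mean log2 CPM the order of Klf4 from lowest to highest was control, Cr(VI), folpet 6000, captan 6000, folpet 16000 and captan 12000 ppm. The step from control to Cr(VI), 1.53, was larger than the larger SD of the pair, 0.999, and each later step was at most 0.11, less than the SDs of its groups. For Klf2 the order was Cr(VI), folpet 16000, captan 12000, captan 6000, folpet 6000 ppm and control. There the last step, 0.72 against an SD of 0.66, was the only one larger than the spread.

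The ratio of Klf4 to Klf2 counts within a library needs no scaling between libraries, though it depends on the 2 probes' efficiencies and is read only across libraries. In control replicates 1 to 5 it was 1.95, 2.62, 1.29, 0.948 and 0.178. The exposed libraries ranged from 2.39 to 37.8, with group medians of 6.18 for Cr(VI), 5.99 and 7 at the captan doses, and 5.98 and 7.17 at the folpet doses, in order of dose. In 33 of 35 exposed libraries the ratio was above every control. The exceptions were captan 6000 ppm replicate 6, at 2.58, and folpet 16000 ppm replicate 2, at 2.39. Klf4 and Klf2 had a Spearman rho of -0.47 over the 40 libraries and -0.34 in deviations from group means, where values of a library share its scaling and tissue makeup.

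**Figure D3:**
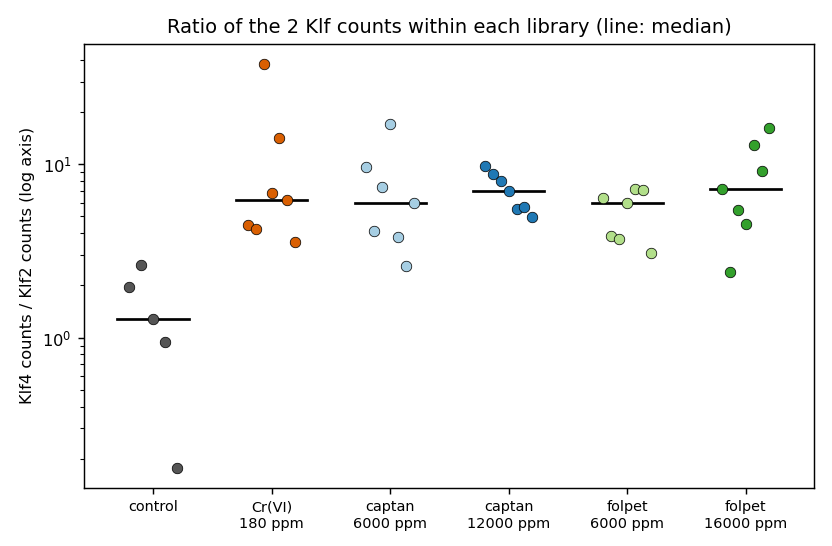
Klf4 counts divided by Klf2 counts in each library (vertical log axis), by group, with a line at each group's median. The control libraries lie between 0.178 and 2.62, and the exposed libraries between 2.39 and 37.8.

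The makeup of the sampled tissue varied between libraries, and in bulk tissue fewer cells of a type and less RNA per cell cannot be told apart. Total counts ran from 1763440 to 7904819 per library. Probes of 16 pancreatic acinar genes took 17.0% to 67.6% of counts in controls, with a median of 33.4%, and 2.69% to 73.4% in the Cr(VI) group, with a median of 46.0%. In the fungicide groups the median acinar share was below that of controls, at 21.6% and 0.700% with captan and 12.8% and 21.8% with folpet in order of dose. The median log2 change of these genes was 0.50 with Cr(VI), -2.18 and -2.32 with captan and -1.91 and -1.29 with folpet. None of the 16 genes passed in edgeR or DESeq2 against control, with 1, 0, 1, 0 and 0 at an unadjusted p under 0.05 and 0, 0, 2, 1 and 0 called by limma-voom, in the order Cr(VI), captan and folpet by dose. Acinar probes exceeded 50% in 2 controls, replicates 4 and 5, and in 3 Cr(VI) libraries, replicates 2, 3 and 7. Control replicate 5 stood apart, with 1460 probes above 0 against 1908 to 2376 in the other libraries. Over the 40 libraries the acinar share had a Spearman rho of -0.40 with Klf4 and 0.31 with Klf2, both being shares of the same libraries. Without the 5 libraries over 50% acinar, Klf4 was higher by 0.90 with Cr(VI) (adjusted p = 0.0320, edgeR), by 1.12 and 1.16 with captan and by 0.98 and 1.18 with folpet. With the acinar share as a covariate the Klf4 estimates ran from 1.19 to 1.44 and all 5 passed. For Klf2 with Cr(VI), leaving those libraries out gave -0.93 (adjusted p = 0.260), which ended its call, while with the acinar share as a covariate it was -1.32 and passed (adjusted p = 0.0114). With that covariate the Klf2 estimates of the fungicide groups moved nearer to 0, to -0.46 and -0.62 with captan and -0.40 and -0.66 with folpet, and none passed.

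**Figure D4:**
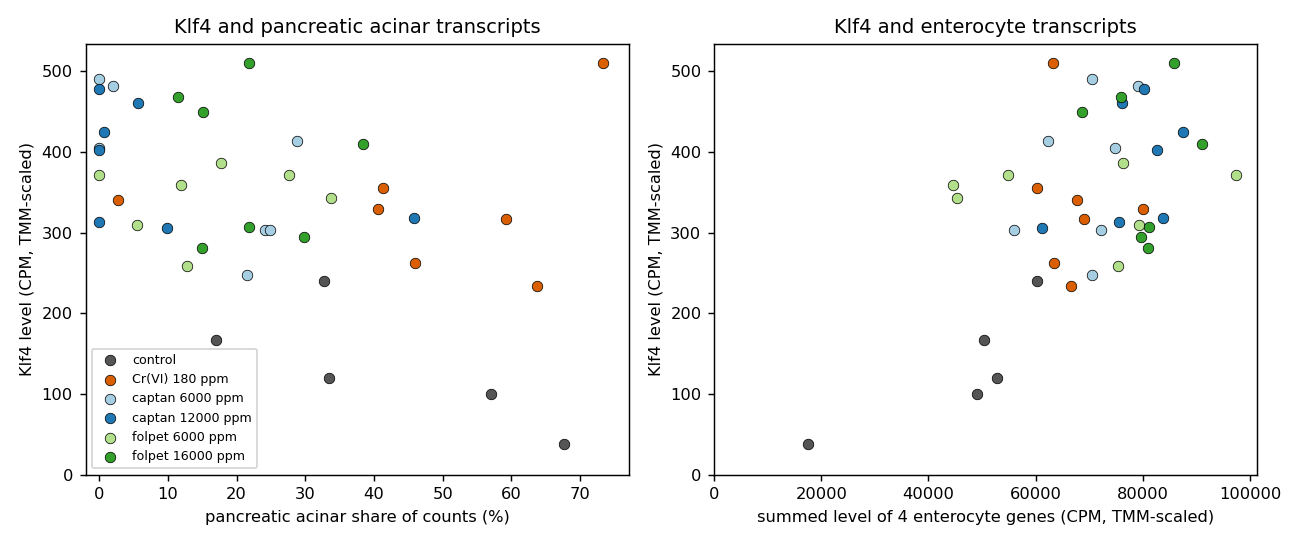
Klf4 level in TMM-scaled CPM (vertical axes) against the pancreatic acinar share of counts in percent (left) and the summed CPM of 4 enterocyte genes (right), 1 point per library. The control with the lowest Klf4, 37.8 CPM, has an acinar share of 67.6% and the lowest enterocyte sum, 17531 CPM.

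Some enterocyte markers, genes of the absorptive villus cells where Klf4 is known to be expressed, were higher in the exposed groups too. All 4 measured, of 14 listed, were above 0 in all 40 libraries. Of these, 2 rose with Cr(VI), 1 and 3 with captan at 6000 and 12000 ppm and 1 and 3 with folpet at 6000 and 16000 ppm, and none fell. For this and the later lists, 2.95% to 7.91% of all probes were called higher in these comparisons and 1.38% to 4.68% lower. Apoa1, the main apolipoprotein of high density lipoprotein, rose in all 5 groups, by 1.13 ± 0.23, 0.91 ± 0.23, 0.95 ± 0.23, 1.10 ± 0.23 and 0.73 ± 0.22 log2 in the order Cr(VI), captan and folpet by dose. Fabp2, the intestinal fatty acid binding protein, rose with captan at 12000 ppm (0.78 ± 0.20) and folpet at 16000 ppm (0.88 ± 0.20). Fabp1, the liver-type fatty acid binding protein, rose by 0.69 ± 0.20 with Cr(VI), 0.63 ± 0.20 with captan at 12000 ppm and 0.66 ± 0.20 with folpet at 16000 ppm. Cyp3a11, the other gene measured, did not pass in any group, so at 6000 ppm of either fungicide Apoa1 alone passed in edgeR. DESeq2 and limma-voom each called 2, 2, 3, 1 and 3 of the 4 genes, in the same order of groups. With captan at 6000 ppm both also called Fabp2 (adjusted p = 0.0382 and 0.0398), which had an adjusted p of 0.0569 in edgeR. The list's median log2 change lay between 0.48 and 0.71, while the median of all probes tested lay between -0.05 and 0.01.

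Their summed level was 17531 to 60292 CPM in controls, with a median of 50295, and 30 of 35 exposed libraries were above every control. Klf4 counts per 1000 counts of these 4 genes were 2.26, 3.98, 3.32, 2.05 and 2.16 in control replicates 1 to 5. The exposed medians were 4.58 with Cr(VI), 5.42 and 4.87 with captan and 5.06 and 4.49 with folpet. On this ratio 35 of 35 exposed libraries lay above the control median and 26 of 35 above every control. The ranges overlapped, the lowest exposed value being 3.43. Fabp2 had by far the highest median count of the 4 genes (228640.5), against 67940.5 for Fabp1, 45084 for Apoa1 and 1473 for Cyp3a11. The part of enterocyte content in the Klf4 values was not tested.

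The other cell types that the samples hold moved as follows against control, in the order Cr(VI), captan by dose and folpet by dose. Of 7 smooth muscle genes 1, 2, 2, 3 and 4 fell and none rose. Flna, an actin crosslinker, fell in all 5 groups, with estimates from -2.24 to -1.15 log2, and Acta2, smooth muscle actin, in the 4 fungicide groups, of which limma-voom did not call captan at 12000 ppm (adjusted p = 0.116). With Cr(VI) Acta2 stood at -0.66 ± 0.21 (adjusted p = 0.0549, edgeR), and DESeq2 called it (adjusted p = 0.0401). Of 10 leukocyte genes 2, 1, 1, 1 and 3 fell. The last 3 included Csf1r, which was above 0 in only 11 of 40 libraries and in 2 controls. DESeq2 gave Csf1r no adjusted p, and limma-voom did not call it (adjusted p = 0.151). Cd74, the invariant chain of class II antigen presentation, fell in all 5 groups, with estimates from -2.28 to -1.25 log2, and Gzma, a cytotoxic granule protease, fell with Cr(VI) (-2.62 ± 0.51) and folpet at 16000 ppm (-2.06 ± 0.50). With limma-voom Gzma was not called with Cr(VI) (adjusted p = 0.0772). The summed leukocyte level was 8886 to 26680 CPM in controls, with a median of 14529, against exposed medians from 3171 to 7628 CPM. Most of that sum is Cd74, and without it the median was 1099 CPM in controls, against 803 with Cr(VI), 688 and 553 with captan and 658 and 393 with folpet. Cd74 and the leukocyte phosphatase Ptprc were above 0 in all 40 libraries, and the T cell receptor chain Cd3d in 7. Of 7 endothelial genes 0 passed in any of the 5 comparisons in edgeR, DESeq2 or limma-voom, with 1 at an unadjusted p under 0.05 in each folpet comparison. Their summed level was 134 to 229 CPM in controls and had exposed medians from 166 to 211 CPM. Thbd, thrombomodulin, was above 0 in all 40 libraries and the adhesion molecule Pecam1 in 28, of which 3 were controls.

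Klf2 was set against marker genes of endothelium and of leukocytes. Per count of the 7 endothelial genes it was 0.269, 0.567 and 0.952 at the lowest, median and highest control, and its exposed medians ran from 0.274 to 0.429. On that ratio 32 of 35 exposed libraries lay below the control median and 11 of 35 below every control. Per count of the leukocyte genes without Cd74 the control median was 0.0898 and the exposed medians ran from 0.0628 to 0.104. There 18 of 35 exposed libraries lay below the control median. By group these were 6 of 7 with Cr(VI), 4 and 3 with captan and 3 and 2 with folpet, in order of dose. Among these leukocyte genes Lyz2, which is not a lymphocyte marker, had the highest median count (1838.5), with Gzma next (457.5). The ratio therefore does not show Klf2 relative to lymphocytes alone. The part of leukocyte content in the Klf2 values was not tested.

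Genes described as regulated by KLF4 in the cell cycle moved in both directions. Of the 12 measured, 0, 0, 0, 1 and 1 rose and 1, 1, 2, 1 and 2 fell, with list medians between -0.27 and 0.13. Ccnd2, a G1 cyclin that KLF4 is known to restrain, fell in all 5 groups, at -1.25 ± 0.23, -0.99 ± 0.23, -0.75 ± 0.23, -0.95 ± 0.23 and -1.29 ± 0.23 log2, and limma-voom did not call it with captan at 12000 ppm (adjusted p = 0.0588). The other Ccnd2 probe, with fewer counts, gave estimates from -1.22 to -0.88 and did not pass in any group. Cdkn1a, the p21 inhibitor that KLF4 is known to induce, rose with folpet at 6000 ppm (0.75 ± 0.18, adjusted p = 0.00565) and 16000 ppm (0.57 ± 0.18, adjusted p = 0.0316), the latter not called by DESeq2 (adjusted p = 0.0582). With Cr(VI) and captan its estimates were 0.18 to 0.30 and did not pass. Cdkn1b, the p27 inhibitor, fell with captan at 12000 ppm (-0.68 ± 0.16) and folpet at 16000 ppm (-0.57 ± 0.16). Of 18 proliferation genes tested, 3 fell with Cr(VI) and 1 with captan at 6000 ppm, and 0 passed in the other groups. Mcm7, a replication helicase subunit, fell in both (-1.24 ± 0.27 and -0.95 ± 0.27). With limma-voom 1 of the 3 calls with Cr(VI) was made, that of Mcm7, and 0 with captan at 6000 ppm, where Mcm7 had an adjusted p of 0.0649. For the groups with 0 calls, edgeR gave 2, 1 and 2 genes at an unadjusted p under 0.05, DESeq2 called 0, 1 and 0, and limma-voom 0 in each.

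Upstream of Klf4, the Notch genes gave 0, 0, 1, 0 and 1 calls of 7, all lower. Both calls were Hes1, the Notch target that represses secretory fate, at -0.66 ± 0.18 with captan at 12000 ppm (adjusted p = 0.0183) and -0.67 ± 0.18 with folpet at 16000 ppm (adjusted p = 0.00902). In the other groups its estimates were -0.21 with Cr(VI), -0.27 with captan at 6000 ppm and -0.51 with folpet at 6000 ppm. At an unadjusted p under 0.05 the Notch list had 0, 0, 3, 2 and 3 genes, and DESeq2 called 0, 0, 2, 1 and 3 and limma-voom 0, 0, 1, 0 and 1. Goblet cells, a known site of Klf4, were represented by Zg16, a granule lectin, and Spdef, a goblet cell transcription factor. Zg16 fell with captan at 12000 ppm (-1.49 ± 0.44) and folpet at 6000 ppm (-1.40 ± 0.44), and Spdef with folpet at 6000 ppm (-1.12 ± 0.35). Both calls with folpet were lost with limma-voom (adjusted p = 0.0718 and 0.0557). Neither passed elsewhere in edgeR, where 1 of 2 had an unadjusted p under 0.05 with Cr(VI), 1 with captan at 6000 ppm and 2 with folpet at 16000 ppm. DESeq2 called Zg16 lower with captan at 6000 ppm as well (adjusted p = 0.0495), and limma-voom did not (adjusted p = 0.0896).

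Of 5 transcription factors of epithelial identity 1 rose in every group. This was Creb3l3, a membrane-bound regulator of lipid genes in liver and intestine, at 1.18 ± 0.17, 0.96 ± 0.17, 0.81 ± 0.16, 1.11 ± 0.17 and 0.87 ± 0.16 log2. The Wnt list gave 1 call of 11 in all, with folpet at 16000 ppm, where 7.91% of all probes were called higher. This was a rise of Axin1, a scaffold of the complex that degrades beta-catenin (0.61 ± 0.20), which DESeq2 did not call (adjusted p = 0.0554). In each of the other 4 groups 1 Wnt gene had an unadjusted p under 0.05, and DESeq2 called 1 with Cr(VI) and limma-voom 0. The stem cell receptor Ephb2, with estimates from -0.89 to -0.23, passed in 0 groups in edgeR, DESeq2 or limma-voom, and in 0 at an unadjusted p under 0.05. The TGF-beta list gave 1 call of 10 tested, with folpet at 16000 ppm, where 4.68% of all probes were called lower. This was a fall of the signal mediator Smad1 (-0.97 ± 0.21). Its other probe, with fewer counts, stood at -0.96 ± 1.04 there and did not pass. In the other 4 groups 2, 2, 0 and 1 of its genes had an unadjusted p under 0.05, DESeq2 called 1 with captan at 6000 ppm and limma-voom 0.

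In the glucocorticoid list of 7 genes, 0, 0, 0, 2 and 1 rose and 1 fell. In the Cr(VI) and captan groups 2, 1 and 0 had an unadjusted p under 0.05, DESeq2 called 1 with Cr(VI) and limma-voom 0. Tsc22d3 (Gilz), a glucocorticoid-induced leucine zipper protein, rose with folpet at 6000 ppm (1.28 ± 0.19) and 16000 ppm (0.66 ± 0.18), while its other probe, with fewer counts, stood at 0.87 ± 0.39 and -0.0033 ± 0.38 there and did not pass. Fkbp5, a cochaperone of the receptor, rose with folpet at 6000 ppm (1.87 ± 0.39), and there the receptor gene Nr3c1 fell (-0.63 ± 0.19). Upstream of Klf2, Map2k5 (MEK5) and Mef2c passed in 0 of 5 comparisons in edgeR, DESeq2 or limma-voom, with 1 of 2 at an unadjusted p under 0.05 with Cr(VI). The zinc finger genes Egr1 and Egr2 passed in 0 of 5 in edgeR and limma-voom. Of them 1 had an unadjusted p under 0.05 with Cr(VI) and 1 with folpet at 16000 ppm, where DESeq2 called 1. Of the reprogramming partners of KLF4, Myc was tested, and passed in 0 of 5 by any of these tools or at an unadjusted p under 0.05.

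**Figure D5:**
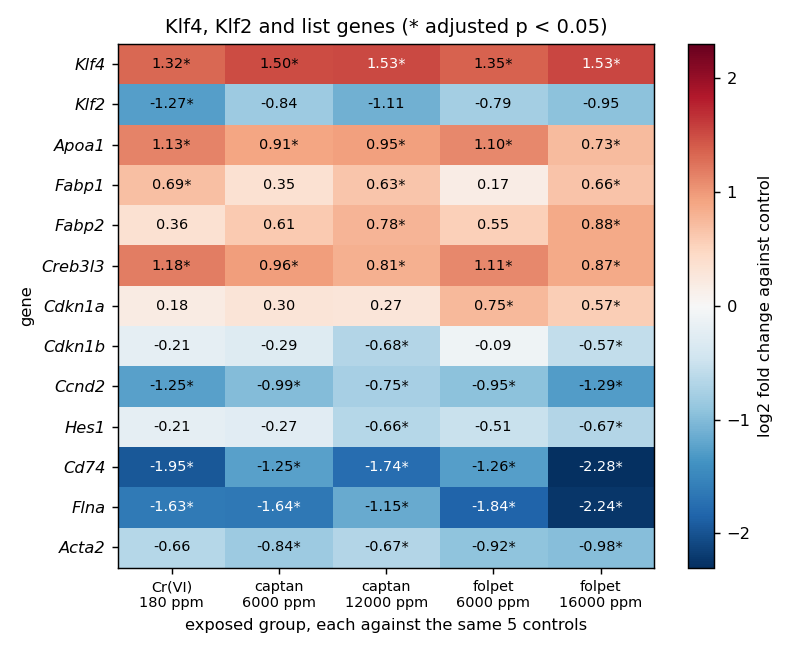
Log2 fold change against the same 5 controls (colour and printed value) for Klf4, Klf2 and genes of the lists (rows) in each exposed group (columns), with an asterisk where the adjusted p was under 0.05. Klf4, Apoa1 and Creb3l3 are marked as higher in all 5 columns, and Ccnd2, Cd74 and Flna as lower in all 5.

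The probes most like Klf4 over the 40 libraries, by Spearman rho of log2 CPM, were Bhlhe40, a basic helix-loop-helix repressor of the clock and hypoxia responses (0.67), and Bpgm, bisphosphoglycerate mutase (0.66). Next came Tax1bp3, a small PDZ protein (0.64), Tubb2a, a beta-tubulin (0.63), and Cidec, a lipid droplet protein (0.63). In deviations from group means, over the libraries that chose them, the same 5 had rho values of 0.57, 0.58, 0.61, 0.59 and 0.70, and over the 35 exposed libraries 0.53, 0.53, 0.51, 0.49 and 0.52. Of these, Tubb2a rose in all 5 groups, by 1.90 to 2.39 log2, although a probe for 1 tubulin may read near-identical paralogs. Tax1bp3 and Cidec rose with Cr(VI) and at both folpet doses, Bpgm rose with captan at 12000 ppm, and Bhlhe40, with estimates from 0.84 to 1.26, did not pass in any group.

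Most like Klf2 were Gimap8, a GTPase of lymphocytes (0.64), Zfp451, a zinc finger SUMO ligase (0.58), Ltb, the lymphocyte cytokine lymphotoxin beta (0.56), Snrpe, a splicing particle protein (0.54), and Evl, an actin regulator (0.53). In deviations from group means their rho values were 0.51, 0.64, 0.31, 0.41 and 0.30, over the same libraries. None of the 5 passed against control in any group in edgeR.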

How the data were processed

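TempO-Seq counts of 40 mouse duodenum libraries were used as the authors deposited them. They are whole numbers per probe with differing library totals. Per the submitters' processing notes, bcl2fastq 2.17.1.14, Bowtie and build mm9 were used, with no step named. The assay amplifies its targets and counts no molecular identifiers, so counts are not independent molecules. Of all values 28.5% were 0, while 1.01% of values above 0 lay from 1 to 5, so a value of 0 in a library does not show that a transcript was absent.

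Table columns carry the sample titles, and groups are the labelled exposures. Replicates are numbered by accession and only named so. Probes were kept with filterByExpr (minimum count 10, minimum total 15), which left 2541 of 3045. Libraries were scaled with TMM and fitted with edgeR 4.0.16 in R 4.3.3 (robust quasi-likelihood, all 6 groups, 34 residual degrees of freedom). Benjamini-Hochberg adjustment ran over all probes within each comparison, with a threshold of 0.05. CPM on the log2 scale used a prior count of 2. DESeq2 1.42.0, limma 3.58.1 (voom), other scalings, filters and left-out libraries were alternatives. Exact permutation tests used scipy 1.17.1. The code was checked on simulated counts.

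The 17 gene lists and both genes were chosen with earlier results of these data known. Of each list, genes that passed against control were named from the 4 with the smallest adjusted p, and not all of these are named. The 5 probes with the highest rho with each gene were named as well. The genes of the heat map were picked after their values were seen. Promoters came from RefSeq, by symbol, and both genes matched.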

Additional observations from a re-analysis of the deposited data

How the results depend on the processing

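Of 113 values of Klf4 under other settings, 109 kept their direction and their side of the threshold. The other 4 were 0.85 with library totals alone and 1.36 with only the compared groups fitted, both with Cr(VI) and without a call, and 2 dose steps near 0 that changed sign without a call. These were the captan step, -0.0091 with the acinar share as a covariate, and the folpet step, -0.0836 with library totals alone. With each library left out in turn, the Klf4 estimate against control ran from 1.10 to 1.66 with Cr(VI), 1.27 to 1.83 and 1.30 to 1.88 with captan and 1.13 to 1.70 and 1.31 to 1.87 with folpet, in order of dose, and kept its call each time. Over the same libraries the captan dose step of Klf4 ran from -0.0502 to 0.12 and captan minus folpet at 6000 ppm of Klf2 from -0.24 to 0.0701.

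Of 113 values of Klf2, 97 kept direction and call, 1 changed sign without a call (0.0058 for captan minus folpet at 6000 ppm with non-acinar totals), 5 lost the call with Cr(VI) and 10 gained a call, 5 with captan at 12000 ppm, 4 with folpet at 16000 ppm and 1 with folpet at 6000 ppm. The number of the 2 genes called with Cr(VI), 2 as reported, was 0 with library totals alone or only the compared groups fitted. It was 1 with limma-voom, without the libraries over 50% acinar, and, chosen after seeing the data, without control replicate 5 and Cr(VI) replicate 3 together. With captan at 12000 ppm, 1 as reported, it was 2 with DESeq2 size factors, DESeq2, a minimum count of 50, or totals of the non-acinar probes alone, the last chosen after seeing the data. With folpet at 16000 ppm, 1 as reported, it was 2 with DESeq2 size factors, DESeq2 or non-acinar totals. With each library left out the number was 1 to 2 in each of these 3 comparisons. The cause was not tested.

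No paired analysis was possible because replicate numbers follow accession order and pair no libraries. Each gene rests on 1 probe. The lowest counts were 42 for Klf4, in control replicate 5, and 31 for Klf2, in Cr(VI) replicate 3, the library with the highest total, and counting error adds to the spread at such counts. The 5 controls enter every comparison, and control replicate 5 gave the lowest Klf4.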
